A study of Homo sapiens with 16 samples.

Results

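The genes described here encode 10 RNA-binding proteins of stress granules: G3BP1, G3BP2, CAPRIN1, TIA1, TIAL1, ATXN2, ATXN2L, PABPC1, PABPC4 and FMR1. They were chosen by name, as well-known proteins of these granules, and no measured value served as a criterion. Earlier results of these data were known when the choice was made. All 10 were among the 7433 genes measured in complemented cells and the 8657 genes measured in lentiCTRL cells, and among the 7386 genes that both sets share.

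Stress granules are condensates of untranslated mRNA and protein that form in the cytoplasm when translation initiation is blocked, for example after phosphorylation of eIF2α. They are held together by multivalent contacts between RNA and RNA-binding proteins, with G3BP1 and G3BP2 at the center of the network, and they dissolve when translation resumes. DDX3X is a DEAD-box helicase that helps ribosomes to initiate on mRNAs with structured 5′ untranslated regions (UTRs), and it is itself a stress granule component. No condition of this study was an applied stress, and granules were not measured.

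The cells were HCT 116, a human colorectal cancer line, of the genotype HCT-116 pCMV-OsTIR1 DDX3X-mAID. Every group shares this background, in which the plant F-box protein OsTIR1, driven by a CMV promoter, directs the degradation of mAID-tagged DDX3X once the auxin indole-3-acetic acid (IAA) is added. The line derives from picked single colonies, so differences between clones could not be seen. There were 4 conditions: lentiDDX3Y cells with IAA, lentiDDX3X cells with IAA, lentiCTRL cells with IAA, and lentiCTRL cells with DMSO. IAA was given at 500 µM, and both treatments lasted 48 h. lentiDDX3Y and lentiDDX3X stand for FLAG-tagged, partly codon-optimized transgenes of the Y- and X-linked paralogs, and lentiCTRL for the control virus. Each condition had 2 replicates of ribosome profiling, in which the RNA fragments protected by ribosomes are sequenced after 100 µg/mL cycloheximide, and 2 of stranded, rRNA-depleted RNA-seq, giving 16 libraries.

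Levels are the authors' base means, that is counts over coding sequences divided by a size factor per library and averaged over 4 libraries. One base mean pools lentiDDX3Y and lentiDDX3X cells, both with IAA, here termed complemented cells. The other pools lentiCTRL cells with IAA and with DMSO, here termed lentiCTRL cells. A base mean therefore has no spread between replicates, and no value per library or depth per library was used. All statements below are descriptions without a test, and neither the effect of IAA nor the difference between DDX3Y and DDX3X is described. All ribosome profiling (ribo) base means were above 20 in the complemented set and above 10 in the lentiCTRL set, so genes with fewer footprints are not represented. All 7 listed markers of colorectal epithelium, among them EPCAM and KRT8, were present in both sets, at RNA base means from 1081 to 25024 in complemented cells and from 941 to 22574 in lentiCTRL cells. Of 7 markers of other cell types, 0 were among the genes of complemented cells and 1 among those of lentiCTRL cells, the collagen gene COL1A1, at an RNA base mean of 506. The degron removes protein and not mRNA, so DDX3X counts do not check the labels. The RNA base mean of DDX3X was 10518 in complemented cells and 6774 in lentiCTRL cells, and that of DDX3Y was 3526 in complemented cells. DDX3Y was not among the genes measured in lentiCTRL cells.

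Most of the 10 genes were abundantly expressed. To compare genes, base means were divided by the length of the coding sequence in kilobases (kb) and ranked, and a percentile gives the percentage of all measured genes with a lower value. The percentile of RNA ranged from 28.7 to 99.4 in complemented cells with a median of 84.0, and from 46.0 to 99.7 in lentiCTRL cells with a median of 87.8. In both sets 8 of 10 genes were above the median gene for RNA, with ATXN2 and FMR1 below it. Ribo per kb was above the median gene for 8 of 10 genes in each set, with median percentiles of 72.0 in complemented and 79.9 in lentiCTRL cells, and here TIA1 and FMR1 were below it. Which genes fell below depended on the division by length. Without it the RNA percentile of ATXN2 was 75.5 in complemented and 79.0 in lentiCTRL cells, that of FMR1 41.8 and 57.7, and that of TIA1 40.7 and 53.5, and the ribo percentile of FMR1 was 47.9 and 54.9.

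**Figure D1:**
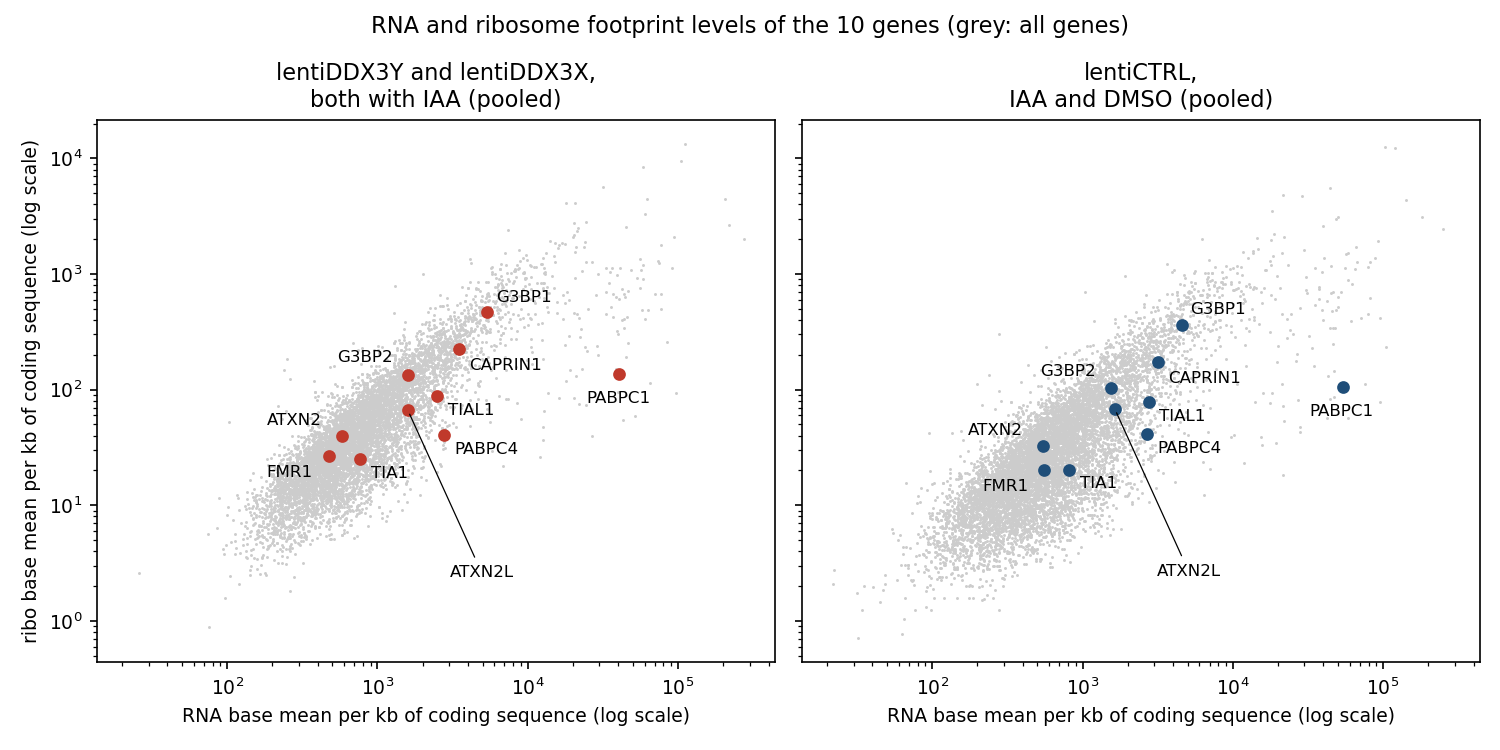
Base mean of ribosome footprints per kb of coding sequence (y axis, log scale) against base mean of RNA per kb (x axis, log scale) in complemented cells (left, red) and lentiCTRL cells (right, blue); each point is a gene, with the 10 stress granule genes colored and all other genes in grey. PABPC1 lies far to the right of genes with as many footprints, at 40747 RNA per kb in complemented cells and 54060 in lentiCTRL cells, while G3BP1 and CAPRIN1 lie within the main cloud.

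Footprints per RNA spread widely within the group. Footprint density was taken as the ribo base mean per 100 RNA base mean, a ratio in which gene length cancels, and it depends on the depths of the libraries, so that it serves to rank genes and not as a number of ribosomes. The median gene had a density of 5.56 in complemented cells (quartiles 3.63 and 7.88) and 4.57 in lentiCTRL cells (quartiles 2.70 and 6.95). Of the 10 genes, 5 lay above the median gene in complemented cells and 4 in lentiCTRL cells, where FMR1 was counted above by a narrow margin in complemented cells, and the median percentile was 40.6 and 40.8 in these sets. Both values depended on the genes against which the 10 were ranked. Against genes with base means above 100, 2 of the 10 in complemented and 1 in lentiCTRL cells were above the median gene. The median percentiles were then 25.8 and 20.4. TIA1, TIAL1, FMR1 and PABPC4 had ribo base means below 100 in both sets, so they did not themselves belong to these genes. Within 10 bins of RNA base mean the median percentiles were 55.1 and 55.3, on the other side of the median gene. The highest density was that of G3BP1 and the lowest that of PABPC1 in both sets. The order of the 10 genes was the same in both sets apart from FMR1 and ATXN2L, which changed places. Without replicates it is not known which neighbors in this order differ beyond error.

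**Figure D2:**
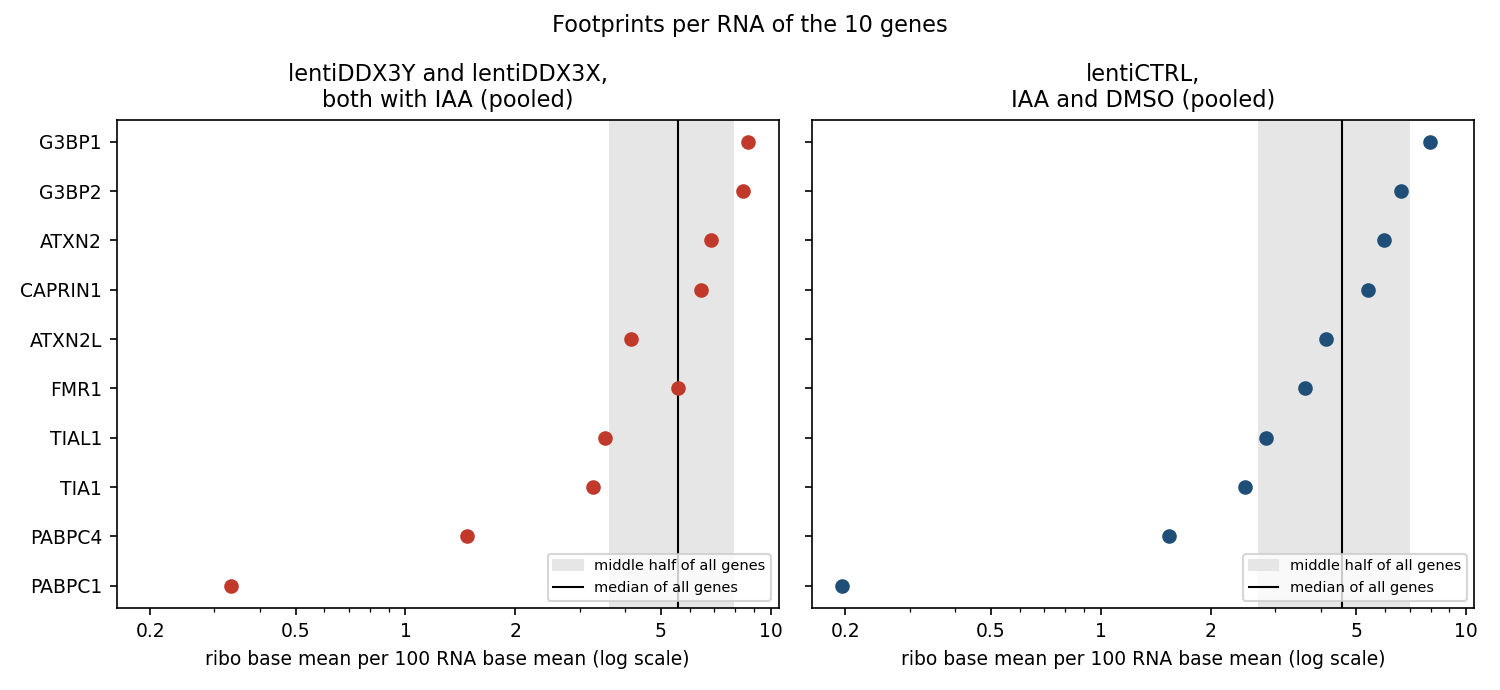
Ribo base mean per 100 RNA base mean (x axis, log scale) of each of the 10 genes (y axis) in complemented cells (left) and lentiCTRL cells (right); the grey band spans the quartiles of all genes and the line is their median. G3BP1 lies above the band in both panels, at 8.69 and 7.95, and PABPC4 and PABPC1 lie far below it.

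G3BP1 and G3BP2, the paralogous scaffold proteins whose loss prevents granules from forming under many stresses, had the most footprints per RNA of the group. G3BP1 (ENSG00000145907.15, chr5:151771045-151812911 on the plus strand of GRCh38) had an RNA base mean of 7539 in complemented cells and 6379 in lentiCTRL cells, and a ribo base mean of 655 in complemented cells and 507 in lentiCTRL cells. Its density of 8.69 in complemented and 7.95 in lentiCTRL cells was at percentiles 81.2 and 81.8. G3BP2 (ENSG00000138757.14, chr4:75641849-75724589, minus strand) had RNA base means of 2304 in complemented and 2241 in lentiCTRL cells, with ribo base means of 194 and 148 in the same sets. Its density was 8.41 in complemented cells and 6.62 in lentiCTRL cells, at percentiles 79.4 and 72.2. Among genes with base means above 100 the density percentiles were 69.7 and 63.3 for G3BP1 and 67.1 and 49.6 for G3BP2. Within 10 bins of RNA base mean they were 87.8 and 89.0 for G3BP1 and 87.2 and 84.5 for G3BP2. Per kb, G3BP1 had 3.38 times the RNA and 3.50 times the footprints of G3BP2 in complemented cells, and 2.94 and 3.54 times in lentiCTRL cells. Their densities thus were close, at ratios of 1.03 in complemented and 1.20 in lentiCTRL cells.

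CAPRIN1 (ENSG00000135387.21, chr11:34051731-34102610, plus strand) encodes a partner that binds the NTF2-like domain of G3BP and promotes granule assembly. It had an RNA base mean of 7361 in complemented cells and 6761 in lentiCTRL cells, with ribo base means of 475 and 365 in the same sets. Its density was slightly above the median of all measured genes, at 6.45 in complemented and 5.40 in lentiCTRL cells (percentiles 60.2 and 59.4). These percentiles were 42.9 and 35.1 among genes with base means above 100, and 74.9 and 74.6 within 10 bins of RNA base mean. FMR1 (ENSG00000102081.14, chrX:147911919-147951125, plus strand), which encodes the translational regulator FMRP, was the least abundant of the group per kb of RNA in complemented cells. Its RNA base mean was 905 in complemented and 1057 in lentiCTRL cells. Its ribo base mean was 50.4 in complemented and 38.3 in lentiCTRL cells, a density of 5.56 and 3.63 (percentiles 50.01 and 37.6), so that it sat at the median gene in complemented cells and below it in lentiCTRL cells. Against genes with base means above 100, a limit that FMR1 itself did not reach in ribo, these percentiles were 33.7 and 18.3. Within 10 bins of RNA base mean they were 56.4 and 45.6.

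TIA1 and TIAL1, which encode paralogous proteins with RNA recognition motifs and a prion-like tail that repress translation, had fewer footprints per RNA than most genes. TIA1 (ENSG00000116001.16, chr2:70209444-70248660, minus strand) had the fewest footprints of the 10, with a ribo base mean of 28.9 in complemented and 23.5 in lentiCTRL cells, at RNA base means of 889 and 947. Its density was 3.25 in complemented and 2.48 in lentiCTRL cells (percentiles 20.5 and 21.9). TIAL1 (ENSG00000151923.17, chr10:119571802-119597029, minus strand) had a ribo base mean of 99.0 in complemented and 88.0 in lentiCTRL cells, at RNA base means of 2810 and 3099. Its density was 3.52 in complemented and 2.84 in lentiCTRL cells (percentiles 23.6 and 26.8). Within 10 bins of RNA base mean the percentiles of TIAL1 were 39.3 and 45.5, while those of TIA1 were 21.3 and 26.4. TIAL1 exceeded TIA1 per kb by 3.25 times in RNA and 3.53 times in footprints in complemented cells, and by 3.37 and 3.85 times in lentiCTRL cells.

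The ataxin-2 genes differed in density. ATXN2 encodes the polyglutamine protein ataxin-2, which binds poly(A)-binding protein, and ATXN2L its paralog. ATXN2 (ENSG00000204842.18, chr12:111443485-111599676, minus strand) had RNA base means of 2009 in complemented and 1902 in lentiCTRL cells and ribo base means of 138 and 113. Its density was 6.86 in complemented and 5.96 in lentiCTRL cells (percentiles 65.2 and 65.7). ATXN2L (ENSG00000168488.18, chr16:28822999-28837237, plus strand) had RNA base means of 5144 in complemented and 5290 in lentiCTRL cells and ribo base means of 213 and 219, giving a density of 4.14 in both (percentiles 31.3 and 43.95). Per kb, ATXN2L had 2.75 times the RNA but 1.66 times the footprints of ATXN2 in complemented cells, and 2.99 and 2.08 times in lentiCTRL cells. The density of ATXN2L was 0.603 times that of ATXN2 in complemented and 0.696 times in lentiCTRL cells.

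Paralogs can share reads, so coding sequences were compared (GENCODE v44 canonical transcripts, GRCh38). Translated, G3BP1 and G3BP2 were identical at 69.5% of 455 aligned residues, TIA1 and TIAL1 at 81.6% of 369, and ATXN2 and ATXN2L at 45.8% of 990. At the nucleotide level these pairs have hardly any stretch as long as a footprint in common. The longest identical coding runs are shown because a footprint longer than the run can be told apart between the genes of a pair. Capitals mark identical bases. Matches to other places in the genome are a separate matter and are given further below. Only the run of TIA1 and TIAL1 reaches 28 nt, and it is 1 of 1131 such windows in TIA1. It lies at chr2:70236141-70236168 in TIA1 and chr10:119588214-119588241 in TIAL1, both on the minus strand.
G3BP1 and G3BP2, 17 nt: TATGTTCACAATGATAT
TIA1 and TIAL1, 28 nt: GGTAACCTTTCCAGAGATGTGACAGAAG
ATXN2 and ATXN2L, 16 nt: GAACACAAAGAGAAGG

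The 5′ UTRs of the 10 genes were longer than usual, with a GC content near that of other genes. Length ranged from 132 nt in G3BP1 to 839 nt in PABPC4 with a median of 261 nt, against 123 nt for the 8486 genes of the lentiCTRL set with a 5′ UTR of at least 10 nt, and all 10 exceeded that median. GC content had a median of 66.5%, against 68.5% for all genes, and 4 of 10 were above it. FMR1, whose 5′ UTR holds the CGG repeat that is expanded in fragile X syndrome, had the highest at 81.6%, followed by ATXN2 at 77.9%, ATXN2L at 77.0% and CAPRIN1 at 73.0%. G3BP1 had the lowest at 53.8%, at percentile 9.59 of all genes. The predicted folding energy per nucleotide, where a more negative value stands for more structure, had a median of -0.381 kcal/mol for the group and -0.379 kcal/mol for all genes. FMR1 was the most negative at -0.594 kcal/mol, at percentile 2.90. Coding sequences were lower in GC than the median gene in 9 of 10 genes, with a median of 48.1% against 52.5% and ATXN2L as the exception at 60.4%. Across all genes the GC content of the 5′ UTR and footprint density had a Spearman correlation of -0.11 in complemented cells (7286 genes) and -0.19 in lentiCTRL cells (8486 genes), and genes are not independent replicates.

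**Figure D3:**
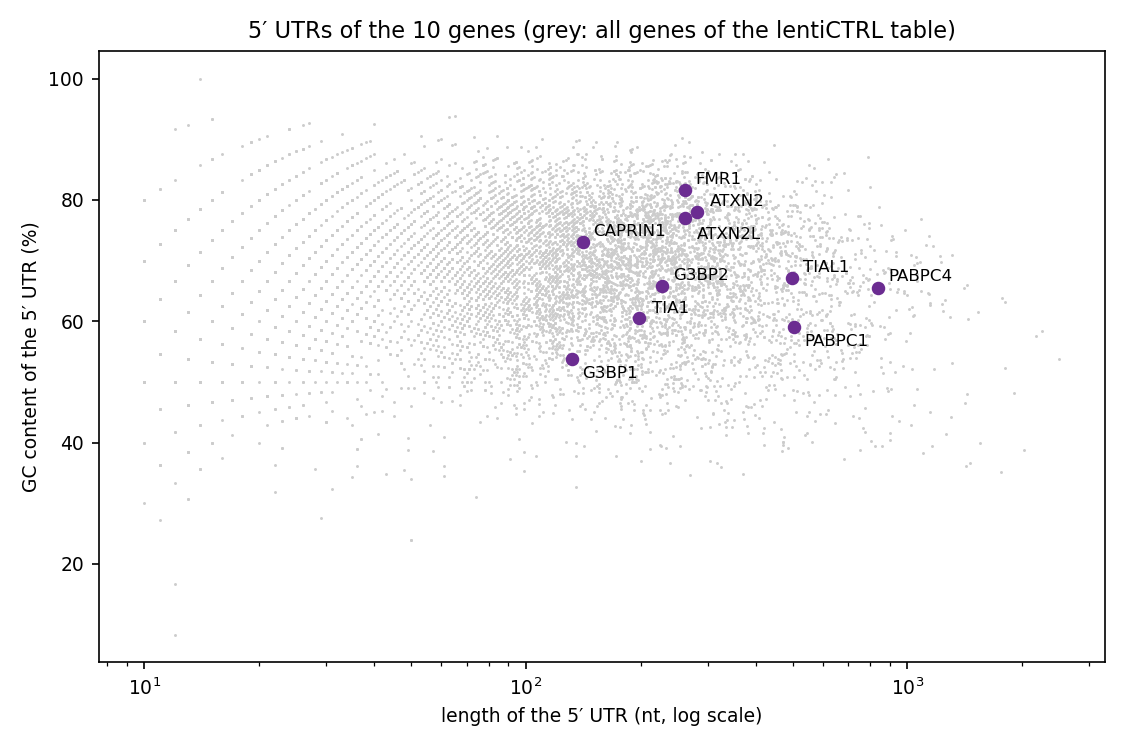
GC content of the 5′ UTR (y axis, %) against its length (x axis, nt, log scale) for the 10 stress granule genes (purple) and all genes of the lentiCTRL set (grey), from canonical transcripts. All 10 genes lie to the right of the median length of 123 nt, and they run from 53.8% GC in G3BP1 to 81.6% in FMR1.

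The sequence around the start codon was examined because it helps to set how often scanning ribosomes start there. The third base before the start codon was a purine in 10 of 10 genes, against 88.4% of 8492 genes, and the base just after it was G in 4 of 10, against 55.2%. The 5′ UTR held an upstream ATG in 1 of 10 genes, ATXN2, against 34.9% of 8486 genes. Of the sequences shown, from GENCODE v44 transcripts with the start codon in capitals, G3BP1, G3BP2, TIA1 and FMR1 carry both the purine and the G.
G3BP1: accaaagcaATGg
G3BP2: agcaaagaaATGg
TIA1: gcagcagccATGg
FMR1: gaagagaagATGg
CAPRIN1: gcgcgcacgATGc
TIAL1: gcacccaccATGa
ATXN2: cccctcaccATGt
ATXN2L: gctgccatcATGt
PABPC4: ggcggggagATGa

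The poly(A)-binding protein genes stood at the bottom of the group in footprints per RNA. PABPC1 encodes the main cytoplasmic poly(A)-binding protein, which bridges the mRNA tail to eIF4G, and its mRNA carries a 5′ terminal oligopyrimidine tract and an adenine-rich stretch in the 5′ UTR through which its translation is known to be regulated. PABPC1 (ENSG00000070756.16, chr8:100685816-100722809, minus strand) had an RNA base mean of 77746 in complemented cells and 103146 in lentiCTRL cells, at RNA percentiles 99.4 and 99.7. Its ribo base mean was 259 in complemented and 202 in lentiCTRL cells, below that of G3BP1 in both. Its density was 0.333 in complemented and 0.196 in lentiCTRL cells, 16.7 and 23.4 times below the median gene, and only 12 genes were lower in each set. PABPC4 (ENSG00000090621.14, chr1:39560709-39576790, minus strand), the inducible paralog first found in activated T cells, had RNA base means of 5446 in complemented and 5303 in lentiCTRL cells and ribo base means of 80.2 and 81.3. Its density was 1.47 in complemented and 1.53 in lentiCTRL cells (percentiles 2.83 and 9.40), which is 4.43 and 7.83 times that of PABPC1. Per kb, PABPC1 had 14.8 times the RNA and 3.35 times the footprints of PABPC4 in complemented cells, and 20.2 and 2.58 times in lentiCTRL cells. Their proteins are identical at 81.2% of 621 aligned residues, and their coding sequences share no 28-nt window, with a longest common run of 18 nt.

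The coding sequence of PABPC1 recurs elsewhere in the genome. Of its 1881 windows of 28 nt, 1003 (53.3%) were found at another place on the 25 chromosomes searched, the mitochondrial one included, a share higher than in 96.8% of the genes of the lentiCTRL set. Of its windows of 65 nt, a length nearer to that of an RNA-seq read, 10.2% recurred. Short footprints from such windows match several places while longer RNA reads more often match a single one, and the sources used here do not say how reads with several matches were counted. The other genes had smaller shares of 28-nt windows elsewhere: 14.5% in G3BP1, 11.9% in ATXN2L, 8.81% in PABPC4, 1.60% in ATXN2, and less than that in CAPRIN1 (0.286%), FMR1 (0.107%), TIAL1 (0.0911%), TIA1 (0.0884%) and G3BP2 (0 of 1419 windows). G3BP1, with the second highest share, had the highest density of the group. The 12 genes with a lower density than PABPC1 all had more than 50% of their windows elsewhere in each set, and EEF1A1, the elongation factor with many processed pseudogenes, was the lowest in both, at 0.0969 in complemented and 0.0818 in lentiCTRL cells. Genes with more than 50% of windows elsewhere had a median density of 3.74 in complemented cells (253 genes) and 3.29 in lentiCTRL cells (305 genes), against 5.77 (4640 genes) and 4.72 (5503 genes) for genes with no such window. The part of repeated sequence in the low density of PABPC1 was not tested. PABPC4, whose share of 8.81% was higher than in 84.3% of the genes of the lentiCTRL set, also had a low density. Within 10 bins of RNA base mean its density percentiles were less extreme, at 15.1 in complemented and 28.5 in lentiCTRL cells.

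**Figure D4:**
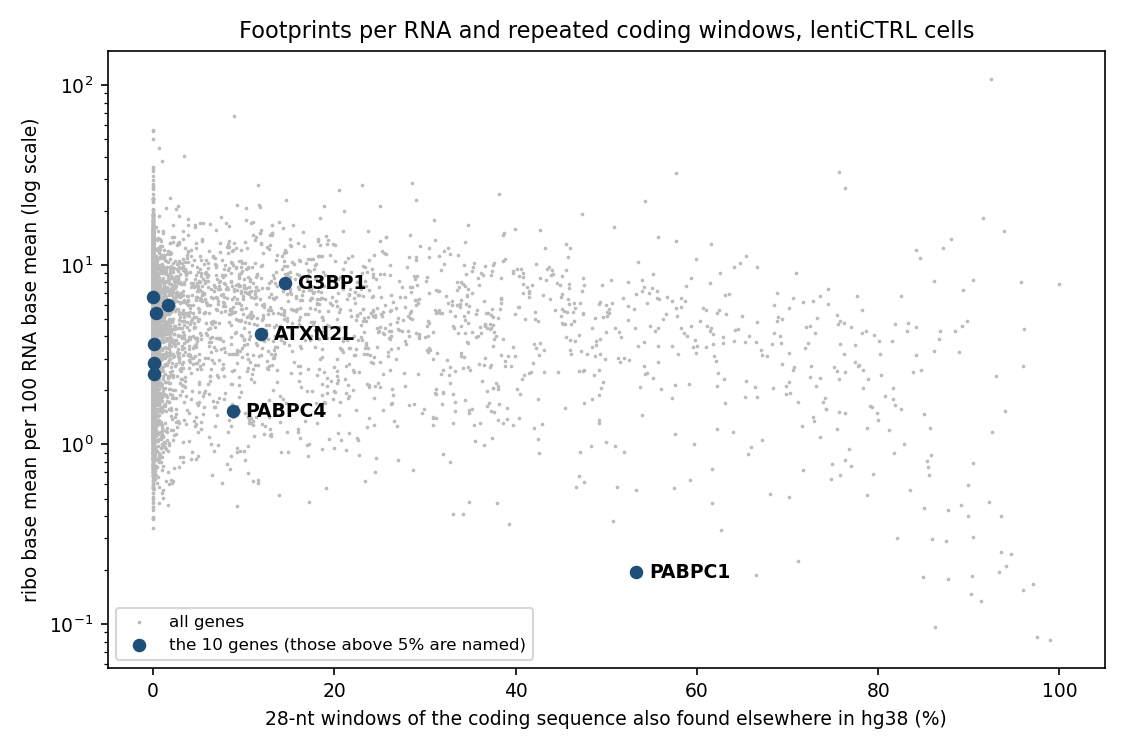
Ribo base mean per 100 RNA base mean (y axis, log scale) against the percentage of 28-nt coding windows that occur elsewhere in the genome (x axis, %) in lentiCTRL cells, with the 10 stress granule genes in blue and all genes in grey. PABPC1 lies at 53.3% and a density of 0.196, and the genes below it lie to its right.

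Levels in complemented cells were also set against those in lentiCTRL cells. The sets were normalized separately and differ in virus, in the share of DMSO libraries and in the libraries themselves, which cannot be told apart here. Each set was therefore centered on its own median over the 7386 shared genes before the difference was taken. Without centering, the median log2 ratio of the shared genes was 0.12 for RNA, 0.37 for ribo and 0.22 for density. A difference of medians is not the median of the differences, so 0 is close to the median gene but not exactly at it. A positive difference means a higher level in complemented cells. For RNA, 9 of 10 genes lay between the 5th and 95th percentiles of all shared genes, at -0.43 and 0.46. The exception was PABPC1, with a log2 difference of -0.50 (percentile 2.86), followed by FMR1 at -0.32 (percentile 9.82). The median of the 10 genes was -0.10 and 2 of them were above 0, G3BP1 at 0.14 (percentile 69.8) and CAPRIN1 at 0.03 (percentile 50.5, next to the median gene). When only genes with base means above 100 in both sets were used, G3BP1 was at 0.08 and CAPRIN1 at -0.04.

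For density, all 10 genes lay within the 5th and 95th percentiles of -0.42 and 0.65, with a median of 0.05 and 6 of 10 above 0. The sign was not stable for genes near 0. With base means above 100 in both sets, G3BP1 went from -0.11 to 0.003 and ATXN2 from -0.03 to 0.08. PABPC1 had the highest density difference of the group at 0.53 (percentile 91.4) and FMR1 the next at 0.38 (percentile 85.2), while their ribo differences were -0.02 and 0.01, so that the density differences of both lay in the RNA. PABPC4 and ATXN2L were lowest, at density differences of -0.30 and -0.24 with ribo differences of -0.40 and -0.42. G3BP1 and G3BP2 had density differences of -0.11 and 0.11. For scale, DDX3X had an RNA difference of 0.54 and a density difference of -0.40, where transgene and endogenous reads are not separated. Whether any of these differences exceeds the spread between replicates cannot be said from pooled values.

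**Figure D5:**
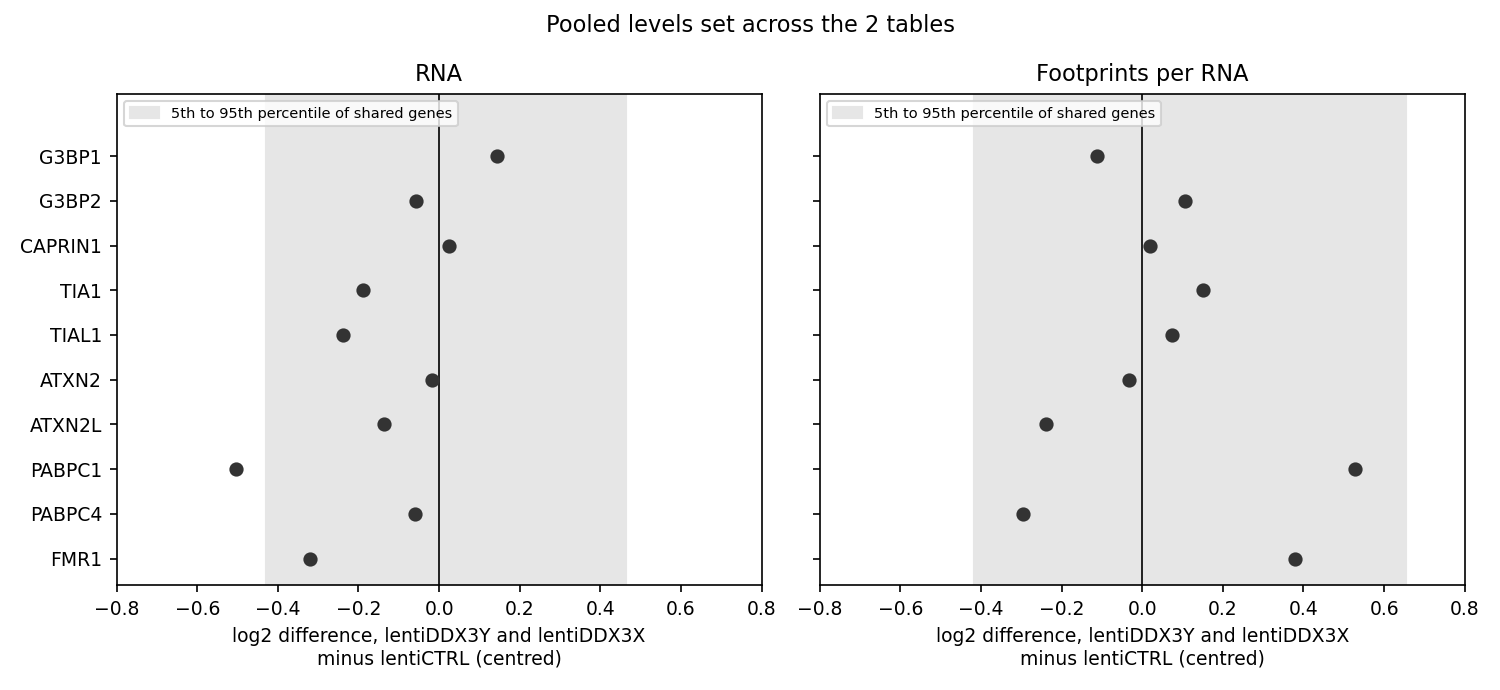
Centered log2 difference in RNA (left) and in footprints per RNA (right), complemented cells minus lentiCTRL cells (x axes), for each of the 10 genes (y axis); the grey band spans the 5th to 95th percentiles of the 7386 shared genes. PABPC1 lies outside the band for RNA at -0.50, and the others lie inside both bands.

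A pair of lists of related proteins gives a setting for these values. Of 28 other stress granule proteins 25 were measured in each set. They resembled the 10 genes in RNA abundance, with 23 of 25 above the median gene in complemented cells and 23 of 25 in lentiCTRL cells. Their density was above the median gene for 6 of 25 in complemented and 10 of 25 in lentiCTRL cells, with median percentiles of 30.4 and 41.0. Among the high densities was that of ELAVL1, which encodes the RNA-binding protein HuR, at 11.8 in complemented and 10.3 in lentiCTRL cells. The lowest in lentiCTRL cells belonged to YBX1, a cold shock domain protein with 89.9% of its windows elsewhere (0.619 in complemented and 0.402 in lentiCTRL cells), and FAM120A (1.88 and 1.32).

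P-bodies are granules of mRNA decay and repression factors that exist without stress. Of 16 P-body genes, 15 were measured in complemented and 16 in lentiCTRL cells, and they were less abundant, with 5 of 15 and 7 of 16 above the median gene for RNA. Density was above the median gene for 4 of 15 in complemented and 7 of 16 in lentiCTRL cells, with median percentiles of 32.0 and 41.6. The decapping cofactor DCP1A had the highest density in lentiCTRL cells (7.59 in complemented and 7.48 in lentiCTRL cells), with its paralog DCP1B next (5.11 and 6.48). The Argonaute gene AGO1 (1.89 and 0.897) and PATL1, a decapping activator (1.59 and 1.15), had the lowest. The 10 stress granule genes thus had a median density percentile of 40.6 in complemented and 40.8 in lentiCTRL cells, next to 30.4 and 41.0 for the other stress granule proteins and 32.0 and 41.6 for the P-body genes.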

How the data were processed

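Ribosome profiling and RNA-seq of 16 libraries were analyzed from 2 tables, one of lentiDDX3Y and lentiDDX3X cells and one of lentiCTRL cells with IAA and DMSO. The authors trimmed adapters, removed reads on rRNA and other short noncoding RNAs, aligned the rest to hg38 (the submitters' notes name cutadapt, Bowtie2 and STAR 2.6.0a) and counted reads over coding sequences. The values used are the signal the authors deposited as base means: counts divided by DESeq2 size factors and averaged over 4 libraries. No source used here states the annotation release. The tables also hold log2 fold changes, adjusted p-values and gene classes of the authors' own comparisons, and these columns were not used. They too are 1 value per comparison. The tables give no value or depth per library, library totals were not used, and no test was made.

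Base means were divided by the canonical coding length (GENCODE v44, 8693 of 8704 genes matched) and ranked within a table. Coding windows of 28 and 65 nt were searched in hg38 on both strands of 25 chromosomes (numba 0.67.0). 5′ UTRs were folded with RNAfold 2.7.2 and translated coding sequences aligned with MAFFT 7.526. Scripts used Python 3.11.15 and pandas 2.3.3 and were tested on simulated data. The members and lists were chosen with earlier results of these data known. Named genes are the 10 members, DDX3X and DDX3Y, and of each list the 2 of highest and the 2 of lowest density in lentiCTRL cells, apart from 1 that is not reported here; EEF1A1, EPCAM, KRT8 and COL1A1 were named after their values were seen. Alternatives were base means above 20 or 100, no division by length, ranking within 10 bins of RNA base mean, only genes in both tables, the longest coding length, transcript-averaged GC content, and, for differences between tables, scaling to the sum of base means. Ranking among genes with at most 1% repeated windows was added after seeing the data.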

Additional observations from a re-analysis of the deposited data

How the results depend on the processing

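No paired analysis was possible because each table column holds 1 value over all replicates, and for the same reason no replicate could be left out. Of the group values under the alternatives, 60 moved by less than 10 percentile points or 1.5-fold and 8 moved further. Some of the 60 had little or no room to move. The base mean limit of 20 removed no gene from the complemented set, and 7386 of its 7433 genes were in both sets. The median density percentile of the 10 genes was 25.8 in complemented and 20.4 in lentiCTRL cells against genes with base means above 100, where 2 and 1 of them were above the median gene. TIA1, TIAL1, FMR1 and PABPC4 did not reach that limit in ribo themselves. The median density percentile was 55.1 and 55.3 among genes in the same of 10 bins of RNA base mean, on the other side of the median gene. RNA level and density had a Spearman correlation of -0.42 in complemented and -0.41 in lentiCTRL cells across genes, where RNA is also the denominator of density. Without division by length, the median ribo percentile in complemented cells was 87.2. With GC content averaged over transcripts, the median percentile of 5′ UTR GC content was 54.2, against 43.0 for canonical transcripts, which also crosses the median gene. Of the values of single genes 258 stayed within the same limits and 54 did not. For differences between sets, the 1.5-fold limit was wider than the RNA and density differences of the 10 genes themselves. A change of sign could therefore count as staying within it. Footprint counts limit precision, with a ribo base mean as low as 23.5 for TIA1 in lentiCTRL cells.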
